A study of Mus musculus with 20 samples.

Results

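CD11b+ cells isolated from colorectal liver metastases were compared with metastasis tissue that held little remaining liver (high-content tumor, Ht). The comparison was defined by the sample labels and took in 6 of the 20 libraries of the series, 3 of CD11b+ cells and 3 of Ht tissue. All mice were wild-type C57BL/6 animals, a few weeks old, and had received 1000000 Mc38 cells by injection into the spleen. Mc38 is a colon carcinoma line of the same mouse strain, and cells injected into the spleen reach the liver through the portal vein. Ht tissue was collected on day 12 and was used whole. CD11b+ cells were selected on day 11 with microbeads and columns from medium-content metastases (Mt2), which are smaller and hold more liver, so the cells did not come from the Ht tissue itself. The labels do not state whether libraries of a group came from separate or pooled mice, so the p-values measure the spread between these samples only.

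CD11b is the alpha M chain of an integrin encoded by Itgam. It pairs with the beta 2 chain, encoded by Itgb2, to form complement receptor 3, which binds complement-coated particles and adhesion molecules on endothelium. The pair is carried by monocytes, many macrophages, neutrophils and some dendritic and natural killer cells, so selection on CD11b enriches myeloid cells without separating their types. Whole tumor tissue holds carcinoma cells, fibroblasts, pericytes, vessels and the same myeloid cells in a smaller share. A difference between sorted cells and tissue therefore describes where a transcript was more abundant, and in bulk RNA a smaller number of cells of a type and less RNA per cell cannot be told apart.

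The CD11b+ libraries held 18049897, 20548370 and 18145408 counts, and the Ht libraries held between 16603151 and 18246623. The methods of the study call the Ht libraries 1 and 3 identical, so they were summed to 1 sample (Ht sample 1) and n was 2 for Ht and 3 for CD11b+, although the 2 differed by as much as other Ht pairs did (chi-square per degree of freedom 27.6, against 26.5 and 12.3). CD11b+ replicate 3 stood apart from the other CD11b+ replicates. Its correlation with them across genes was 0.967 and 0.964, against 0.992 between replicates 1 and 2, and the gap followed gene length, from a median of 1.05 log2 units above the mean of replicates 1 and 2 in 169 genes under 1000 bases (protein-coding, mean of at least 5 CPM in both groups) to -0.38 log2 units in 4017 genes of 5000 bases or more. Many lists and genes below are therefore also given without this replicate. The replicates 1 and 2 alone gave a median CD11b+ minus Ht difference of 0.042 in the shortest genes, where all 3 gave 0.52. Tissue and cells were deposited as separate tables. Sex-linked transcripts also differed between them, with Xist counts of 5547 to 21805 in the CD11b+ libraries and 0 in every Ht library, so genes of chromosomes X and Y were left out. The labels call the tissue male and give no sex for the cells, and the methods name female mice. Kind of sample, sex of the animals, day, cell isolation and sequencing table changed together between the groups, and their parts in any difference cannot be told apart.

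**Figure D1:**
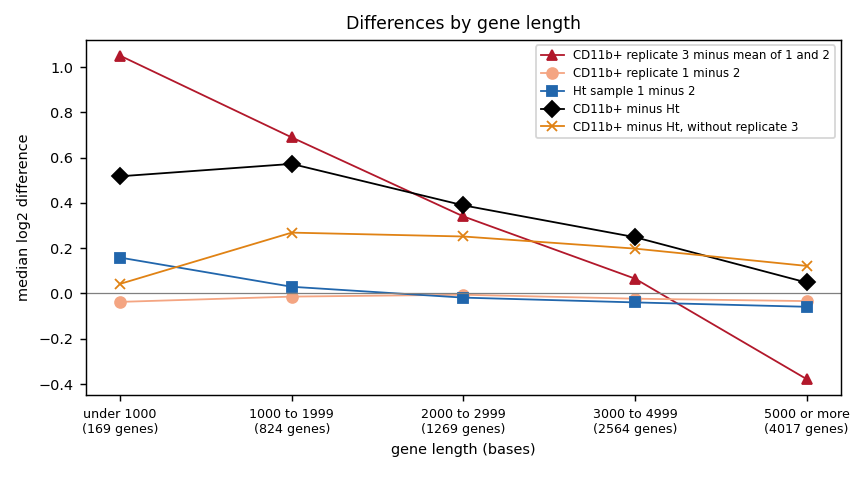
Median log2 differences (vertical axis) over 5 classes of gene length in bases (horizontal axis, number of genes in brackets), for CD11b+ replicate 3 against the mean of replicates 1 and 2, replicate 1 against 2, Ht sample 1 against 2, and CD11b+ against Ht with and without replicate 3. The line of replicate 3 falls from 1.05 to -0.38 while the other replicate comparisons stay near 0.

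Of 15509 genes tested, 6894 passed the threshold, an edgeR quasi-likelihood adjusted p no higher than 0.05 together with a log2 fold change of 1 or more in either direction. This is 44.5% of the genes. CD11b+ cells were higher in 3310 genes (21.3%) and lower in 3584 (23.1%), and the median log2 fold change (CD11b+ over Ht) over all genes tested was 0.095. All CD11b+ samples lay above both Ht samples in 37.3% of the genes and below both in 36.7%, or 74% in either direction, so groups that do not overlap are the common case here and carry little weight for a single gene. Scaling by total counts instead of the trimmed mean of M-values shifted the median of all genes by -0.50 and turned the split of the 6814 genes then called to 2009 higher and 4805 lower. Fold changes below are relative to the trimmed-mean scaling. Of the genes named below, 15 lost their call with total-count scaling (B2m, Ccl2, Gapdh, H2-D1, H2-K1, Itga4, Itgb5, Itgb7, Kit, Mmp12, Mrc1, Notch1, Notch2, Xcr1 and Zeb2), and Flt1 and Ifit1 passed as lower with it. Of the 702 genes in the lists used below, 671 were tested, 27 were below the filter on low counts and 4 lie on chromosome X or Y. Every count of genes in a list is to be read beside the 21.3% and 23.1% of all genes.

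The selected antigen was checked first. Itgam (ENSMUSG00000030786, chr7:128062640-128118491, plus strand, GRCm38) stood at 355, 372 and 445 normalized CPM (counts scaled to library size) in the CD11b+ samples and at 35.2 and 37.4 in the Ht samples. All CD11b+ samples were thus well above both Ht samples, and the log2 fold change was 3.43 with a standard error (SE) of 0.46 and an edgeR adjusted p = 2.22e-05. Its partner Itgb2 (chr10:77530252-77565708) had 552, 649 and 479 CPM against 66.8 and 83.8, a log2 fold change of 2.89 (SE 0.37). Itgax, the alpha chain of CD11c that macrophages and dendritic cells carry, is the neighbouring gene on chromosome 7 and reached 219, 233 and 209 CPM against 9.70 and 11.1, a log2 fold change of 4.40 (SE 0.55, edgeR adjusted p = 1.34e-05). The Itgax values of the CD11b+ samples were close together and none approached the Ht level. All 7 leukocyte integrin genes tested passed as higher in CD11b+, with a median log2 fold change of 2.64. With total-count scaling 4 of the 7 passed, and Itga4 (1.11) and Itgb7 (0.68) were among those that did not. Itgal (lymphocyte function antigen) was at 2.64 and Itga4 (the alpha 4 chain that binds vascular adhesion molecules) at 1.56, while Itgb7 passed with all samples and did not without replicate 3 (1.02) or without either Ht sample (1.21 and 1.19). Per kilobase of transcript, the mean CD11b+ level of Itgb2 was 183.5 CPM, above Itgam (77.8), Itgax (45.9) and Itgal (37.0), which each pair with it.

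The bases upstream of the annotated starts of Itgam and Itgax are shown because Itgam is the selected antigen and Itgax is its neighbour, and both were high in the CD11b+ samples. Each stretch is the 250 bases before the gene start on the plus strand (RefSeq, GRCm38.p6), with matches to GAGGAAG, a core of sites of the myeloid factor PU.1 (gene Spi1), in capitals.
Itgam, chr7:128062390-128062639: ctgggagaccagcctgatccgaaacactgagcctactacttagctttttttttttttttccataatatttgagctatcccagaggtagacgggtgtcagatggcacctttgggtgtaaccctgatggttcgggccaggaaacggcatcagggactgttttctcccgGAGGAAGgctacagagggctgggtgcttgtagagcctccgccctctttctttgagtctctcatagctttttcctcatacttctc
Itgax, chr7:128129300-128129549: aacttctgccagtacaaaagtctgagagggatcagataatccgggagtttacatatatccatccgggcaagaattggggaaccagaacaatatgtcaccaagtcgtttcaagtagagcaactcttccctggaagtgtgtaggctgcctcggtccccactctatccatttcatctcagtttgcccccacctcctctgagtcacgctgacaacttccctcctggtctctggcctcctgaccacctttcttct
The Itgam stretch held the motif at 84 bases before the start, and the Itgax stretch held no match on either strand. Among the leukocyte integrin genes, 4 of 7 had an upstream stretch in the table and 1 of the 4 held the motif, whereas 10.6% of the 32851 stretches of the table held it. Only this string was searched, so other forms of the site are not marked in either stretch. A match of letters is a description and not a binding site. A share over the genes called here was not taken, since only 77.7% of the protein-coding genes tested had a stretch.

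Macrophage genes rose in the CD11b+ cells as a whole list. All 13 macrophage markers passed as higher, between 1.36 and 3.41 on the log2 scale with a median of 2.98 (2.64 without replicate 3, again 13 of 13). Csf1r, the receptor for colony-stimulating factor 1 on which macrophages depend, had 2045, 2188 and 1715 CPM in CD11b+ cells and 263 and 304 in Ht (log2 fold change 2.81, SE 0.29, edgeR adjusted p = 2.28e-06). Its values in Ht were far from 0, as were those of Adgre1, which encodes F4/80, at 122 and 150 CPM against 515, 543 and 555 (1.98, SE 0.26). The smallest change of the list was that of Mrc1, the mannose receptor CD206, with 674, 709 and 315 CPM against 219 and 223 (1.36, and 0.90 without a call under total-count scaling). The summed level of the macrophage list was 20808 to 34345 CPM in the CD11b+ samples and 3343 to 3427 in Ht, so Ht tissue held a measurable share of the same transcripts.

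Monocyte genes followed with 8 of 10 higher and 1 lower and a median of 3.06 (2.64 without replicate 3, with the same counts). Ccr2, the receptor that brings monocytes from blood into tissue, had 486, 500 and 672 CPM against 70.9 and 94.8 (2.74, SE 0.48), and Ly6c2, the antigen of classical monocytes, had 352, 347 and 784 against 22.7 and 31.8 (4.18, SE 0.64). Chil3, a chitinase-like protein of young monocytes, differed most after Nr4a1, at 5.38. The list held 1 gene in the other direction: Vcan, the proteoglycan versican, which stroma also makes, had 88.5, 110 and 24.7 CPM in the CD11b+ samples and 660 and 607 in Ht. Ace stood between 15.2 and 38.1 CPM in CD11b+ and 13.7 and 16.6 in Ht, an overlap of the groups.

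Neutrophil genes were far higher in the CD11b+ cells. Of 15 genes tested, 13 were higher in CD11b+ cells and none was lower, with a median log2 fold change of 6.15 (6.29 without replicate 3). S100a8, a subunit of calprotectin, had 251, 161 and 1326 CPM against 1.84 and 2.55, and S100a9, its partner, had 408, 273 and 1686 against 1.38 and 2.19 (8.81, SE 1.52, edgeR adjusted p = 0.000214). Replicate 3 was the highest for both. Genes of the granules that neutrophils load while they mature in bone marrow spread even more: Camp (cathelicidin) ran over 78.9, 7.95 and 359 CPM, Ltf (lactoferrin) over 229, 33.4 and 608, and Ngp over 359, 43.4 and 866, with replicate 2 lowest each time and Ht at or below 1.86 CPM throughout. Receptors of mature neutrophils were more even, with Csf3r, the receptor for granulocyte colony-stimulating factor, at 292, 414 and 279 against 10.8 and 13.4 (4.77, SE 0.42), and Cxcr2 at 37.2, 57.2 and 51.1 against 0.524 and 0.657. Mmp9 overlapped between the groups, with 167, 261 and 149 CPM against 165 and 179, as did Lcn2 with 146, 49.9 and 338 against 33.7 and 58.3.

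**Figure D2:**
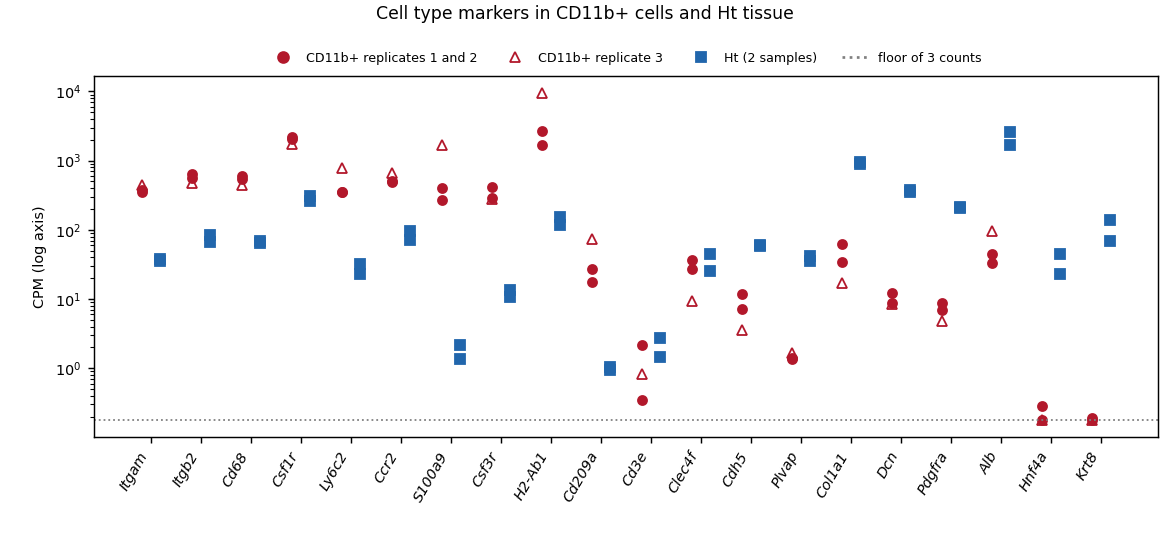
CPM (log axis) of 20 cell type markers, each point a sample: filled circles are CD11b+ replicates 1 and 2, open triangles replicate 3 and squares the 2 Ht samples, and values under the dotted floor of 3 counts are drawn on it. Myeloid markers such as Itgam (355 to 445 CPM against 35.2 and 37.4) lie higher in the cells, and stromal, hepatocyte and keratin genes such as Dcn (373 and 350 CPM in Ht) lie higher in the tissue.

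Dendritic cell genes were mixed, with 7 of 12 higher and 1 lower and a median of 1.86 (6 higher, 1 lower and a median of 1.21 without replicate 3). Flt3, the receptor of dendritic cell precursors, had 24.1, 16.7 and 21.9 CPM against 2.39 and 1.82 (3.30, SE 0.40), and Cd209a, a lectin of monocyte-derived dendritic cells, had 27.2, 17.5 and 72.6 against 1.05 and 0.949. The markers of conventional type 1 cells, Clec9a and Xcr1, overlapped with Ht. The call of Xcr1 (1.69) was lost without replicate 3 (0.59) and also in a fit of the 5 samples alone (1.60). Without Ht sample 1 Xcr1 stood at 1.49, and without Ht sample 2 at 1.91. Fscn1, an actin-bundling protein that carcinoma cells also make, was lower at -2.96. Of the 8 Kupffer cell genes tested Nr1h3 alone passed, at 1.84 (not without Ht sample 1, at 1.59), and the defining Clec4f had 27.0, 36.7 and 9.47 CPM against 25.8 and 45.5 in Ht. The median of the Kupffer list, 0.28, became -0.20 with scaling by total counts, -0.14 without CD11b+ replicate 2 and -0.15 without Ht sample 1. Lymphocyte genes were at low levels in the cells: the summed T and NK cell list stood at 42.3 to 92.6 CPM in CD11b+ and 83.9 to 106 in Ht, with 3 of 16 genes lower (Eomes, Ncr1, Prf1) and 2 higher (Cd4, which mouse myeloid cells can carry, and Klrk1, which did not pass without Ht sample 1, at 1.54). The number lower was 6 with DESeq2, with total-count scaling, with no filter and without CD11b+ replicate 1, and 7 in a fit of the 5 samples alone. Prf1 did not pass without Ht sample 2 (-1.88). Of 8 B and plasma cell genes tested, Cd79b and Cd22 were higher and 6 did not pass, with a median of 1.00 (0.80 without replicate 3 and 0.49 with total-count scaling). Their summed level was 43.0 to 97.8 CPM in the CD11b+ samples, above the 15.2 and 15.7 CPM of Ht. Pax5 and Ms4a1 stayed under 1 CPM in every CD11b+ sample.

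Transcripts of other cell types were also measured in the selected population. Fibroblast and pericyte genes summed to 182 to 340 CPM in CD11b+ samples against 6553 to 7351 in Ht, hepatocyte genes to 66.7 to 212 against 3185 to 4650, and endothelial genes to 148 to 151 against 331 to 357. None of these was at 0 in the cells. Alb (albumin) had 44.4, 33.1 and 94.7 CPM in the CD11b+ samples, highest in replicate 3, and Col3a1 had 231, 158 and 133. The part of these other transcripts in the results was not tested.

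Transcription factors separated the groups. Of 22 myeloid factors tested, 21 were higher in CD11b+ cells and none was lower, with a median of 2.31 (2.33 without replicate 3). Spi1 had 551, 570 and 919 CPM against 58.4 and 67.7 (3.43, SE 0.33, edgeR adjusted p = 1.42e-06). Cebpb, a factor of inflammatory myeloid gene expression, had 858, 948 and 1405 CPM, a log2 fold change of 3.37, and Irf8, which guides monocyte and dendritic fate, had 306, 299 and 344 against 55.5 and 67.1. In each of these every CD11b+ sample exceeded both Ht samples. Nfe2 differed most (5.34) and Rela, a subunit of the general factor NF-kappa B, stayed below the fold threshold at 0.58. In the list of mesenchymal and epithelial factors, 21 of 24 were lower with a median of -4.07, among them Twist1 (68.7 and 57.5 CPM in Ht against 3.22 to 3.998), Prrx1, the transcriptional partners Tead1 and Wwtr1 of the Hippo pathway, and Hmga2. Of the other genes of this list 2 did not pass, and Zeb2 was the only one called higher in CD11b+ cells, at 1.30 (0.82 and no call with total-count scaling). Its relative Zeb1 was lower at -2.68.

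Receptors by which phagocytes sense particles were higher as a group. All 20 Fc and activating receptor genes passed, with a median of 3.15 (2.94 without replicate 3, again 20 of 20). Fcgr3, a receptor for immunoglobulin G, had 788, 788 and 820 CPM against 103 and 104 (2.95, SE 0.37), and Fcer1g, the signalling chain it needs, had 791, 745 and 1393 against 115 and 107. The lectins Clec4e and Clec4d, which sense mycobacterial and fungal lipids, had the largest differences at 5.59 and 5.32. Among pattern recognition genes, 14 of 17 were higher, with Cd14, the co-receptor for lipopolysaccharide, at 592, 802 and 611 CPM against 22.2 and 24.1 (4.85, SE 0.46) and Nlrp3, the inflammasome sensor, at 3.78. The receptors for viral RNA, Tlr3, Ifih1 and Ddx58, were the 3 that did not pass, with differences from -0.22 to 0.37.

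Genes of the oxidase and the lysosome gave 21 of 27 higher and 2 lower, with a median of 2.14 (21 higher, 1 lower and a median of 1.85 without replicate 3). The cytosolic subunits of the phagocyte oxidase Ncf1 and Ncf4 lay at 3.06 and 3.29, and the membrane subunit Cyba at 2.73. Ctss, the cathepsin that trims the invariant chain, had 3040, 2745 and 6008 CPM against 444 and 496 (3.07, SE 0.48). The cathepsins did not move together: Ctsb (1.80) and Ctsd (1.63) were less different than Ctss, Ctsk overlapped between groups, and Ctsl was lower at -1.03, a call that was lost without replicate 3 (-0.87) and without Ht sample 1 (-0.96). Cd63, a tetraspanin of late endosomes that many cell types carry, was lower as well at -1.31.

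Of 15 complement genes tested, 6 were higher, 6 lower and 3 did not pass, with a median of -0.93 (-1.11 without replicate 3). The 3 chains of C1q, which starts the classical pathway and is made by macrophages, were higher at 2.96 to 3.07, with C1qa at 3320, 2687 and 6262 CPM against 510 and 466. The receptors C3ar1 (2.37) and C5ar1 (2.59) were higher too. Proteases that act with C1q were lower, with C1s1 at 9.40, 3.83 and 3.29 CPM in CD11b+ samples against 174 and 184 in Ht (-5.02, SE 0.42, edgeR adjusted p = 5.12e-07) and C1ra at -2.55. Their inhibitor Serping1 was lower at -5.44. C3 did not pass (312, 259 and 398 against 524 and 866; -1.10, SE 0.54).

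Antigen presentation on class II was higher in every gene tested, 13 of 13, with a median of 4.10 (3.57 without replicate 3). H2-Ab1, a class II chain, had 2672, 1655 and 9531 CPM against 119 and 151 (5.10, SE 0.85), and Cd74, the invariant chain, had 7605, 4355 and 21322 against 258 and 420 (5.03, SE 0.82, edgeR adjusted p = 0.000127). Replicate 3 was the highest in these short transcripts, and without it their log2 fold changes were 4.003 and 4.14. Ciita, the factor that turns the class II genes on, had 136, 96.7 and 159 CPM against 8.92 and 10.9. Class I presentation differed less, with 9 of 13 genes higher, a median of 1.32 and only 5 higher (median 0.94) without replicate 3 and 5 (median 0.78) with total-count scaling. H2-K1 stayed at the threshold without it (1.00), whereas H2-D1 (0.91) and B2m (0.88), the light chain of class I, dropped below it. Interferon-stimulated genes gave 15 of 26 higher and none lower, with a median of 1.16, and 12 higher and 1 lower without replicate 3. With total-count scaling 7 were higher and 2 lower, with a median of 0.67, and without Ht sample 1 the number higher was 9. Irf7 was at 1.94 and Mx1 at 2.45, whereas Ifit1, an RNA-binding effector, was at -0.91 with 52.5, 59.0 and 82.1 CPM against 120 and 121.

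**Figure D3:**
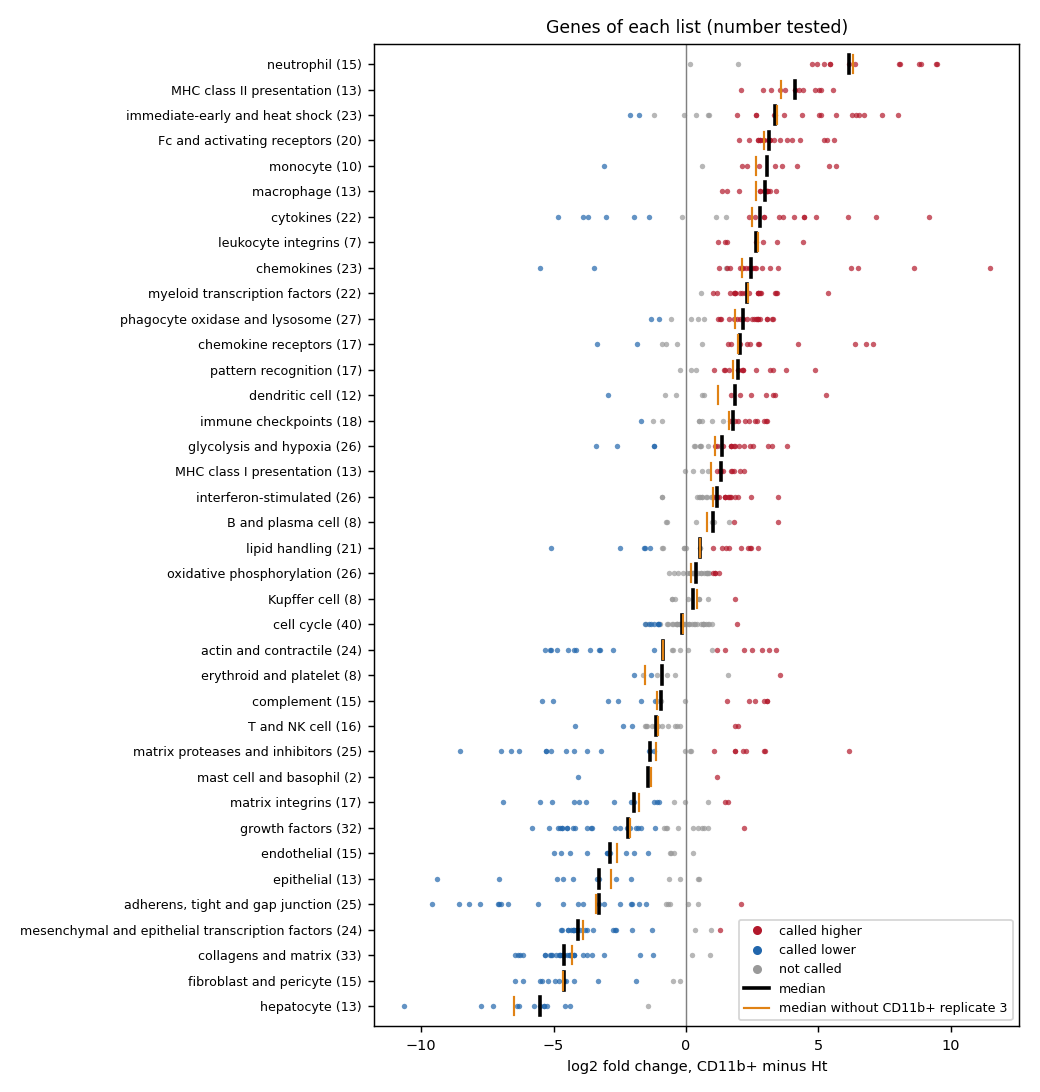
Log2 fold change (CD11b+ minus Ht, horizontal axis) of every gene tested in each of 38 lists, with the number tested in brackets, points coloured by call, a black bar at the median and an orange bar at the median without CD11b+ replicate 3. Lists of myeloid function lie to the right, up to 6.15 for neutrophil genes, and lists of stroma and hepatocytes lie to the left, down to -5.50.

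Cytokine genes differed in level in both directions. Of 22 tested, 13 were higher and 6 lower in CD11b+ cells, and 3 did not pass. Il1b, the inflammasome-processed interleukin, had 388, 713 and 876 CPM against 0.776 and 1.53 (9.19, SE 0.91, edgeR adjusted p = 1.69e-06). Osm, oncostatin M, had 161, 193 and 173 against 1.28 and 1.13, and Tnf had 50.8, 87.5 and 88.0 against 1.18 and 0.949. Il10, a cytokine that restrains inflammation, had 11.9, 11.8 and 14.1 against 0.524 and 0.620, and Il1rn, which blocks the interleukin receptor that Il1b uses, had 34.4, 51.2 and 76.3 against 4.48 and 4.96. Tgfb1 was higher at 2.38, whereas its relatives Tgfb2 (-4.83) and Tgfb3 (-1.39, and -0.97 with no call without replicate 3) were lower. Il6 passed as higher at low levels, with 1.205, 1.38 and 0.9995 CPM against 0.0776 and 0 (4.47, SE 1.18). The genes higher in tissue were Csf1 with 180 and 161 CPM against 38.2, 55.5 and 38.0, Il34, the alarmin Il33 (-3.89) and Il11 (-3.01). The call of Il11 was lost without CD11b+ replicate 1 (-2.73) or 2 (-2.37) or Ht sample 1 (-2.68), and that of Tgfb3 without either Ht sample (-1.41 and -1.38).

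Chemokine genes gave 20 of 23 higher and 2 lower, with a median of 2.44 (18 higher without replicate 3 and 12 without Ht sample 1). Cxcl2, which draws neutrophils through Cxcr2, had 378, 744 and 489 CPM against 0.136 and 0.255 (11.47, SE 1.47, edgeR adjusted p = 1.57e-05), the largest rise of the genes named by size. Ccl3 had 186, 196 and 224 against 1.80 and 2.77, and Ccl4 had 138, 176 and 272 against 1.96 and 3.39. Ccl6 and Ccl9, chemokines that rodent macrophages make in quantity, were at 505 to 728 and 445 to 688 CPM, against 90.6 to 102 and 101 to 102 in Ht. Ccl2, the ligand of Ccr2, differed by less, with 184, 242 and 164 against 91.0 and 76.9 (1.23, SE 0.41), and did not pass without CD11b+ replicate 2 (1.05) or without either Ht sample (1.36 and 1.11). The 2 lower chemokines were Cxcl12 (27.7 and 25.7 CPM in Ht against 0.385, 0.473 and 0.941) and the membrane-bound Cx3cl1 (-3.49). Among 17 chemokine receptors, 11 were higher and 2 lower, the latter being the scavenging receptors Ackr3 and Ackr2. Cxcr4 had 141, 142 and 169 CPM against 7.82 and 8.14 (4.24, SE 0.48), and Ccrl2, a receptor that holds chemerin, had 247, 393 and 356 against 2.79 and 3.17 (6.80).

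Immediate-early genes, which cells switch on within minutes of a stimulus, were among the most different. Together with heat shock genes, 16 of 23 were higher and 2 lower with a median of 3.34 (17 higher without replicate 3). Fos had 2482, 2274 and 2149 CPM against 7.72 and 10.1 (8.01, SE 0.54, edgeR adjusted p = 1.11e-07). Dusp1, a phosphatase that ends stress signalling, had 1880, 2291 and 1858 against 16.9 and 21.2, and Zfp36, which destabilizes cytokine messages, had 2275, 2574 and 2236 against 26.1 and 29.6. Junb stood at 1454, 1712 and 1977 against 46.6 and 53.8. Heat shock genes parted: Hspa1a, whose counts may be shared with its near-identical copy Hspa1b, was higher with 365, 184 and 392 CPM against 1.78 and 1.93, while Hsp90aa1 (-1.76) and Hsph1 (-2.10) were lower. The levels were also set beside Mt2 tissue, the kind of metastasis from which the cells were selected. The Mt2 libraries belong to the tissue table and are labelled male like Ht, so they were not shown to be the source of the cells, and these ratios cross sequencing table and sex as well. The mean CD11b+ level was 195 times the mean Mt2 level for Fos, 118 times for Hspa1a, 37.0 times for Zfp36 and 31.0 times for Dusp1, and it was 1697 times for Cxcl2, 283 times for Osm and 63.1 times for Tnf, against 16.2 times for Itgam, 11.3 times for Lyz2 and 8.39 times for Csf1r. These are single genes: the median of this ratio was 8.71 over the whole immediate-early and heat shock list, 5.81 over the chemokines and 3.999 over the cytokines, against 9.99 over the macrophage list. The F4/80+ cells, isolated from Mt2 metastases with beads as well, had 1874 to 3456 CPM of Fos and 98.3 to 412 of Cxcl2. The part of tissue dissociation and bead handling in the levels of these genes was not tested, and it cannot be told apart from the kind of sample in this comparison.

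**Figure D4:**
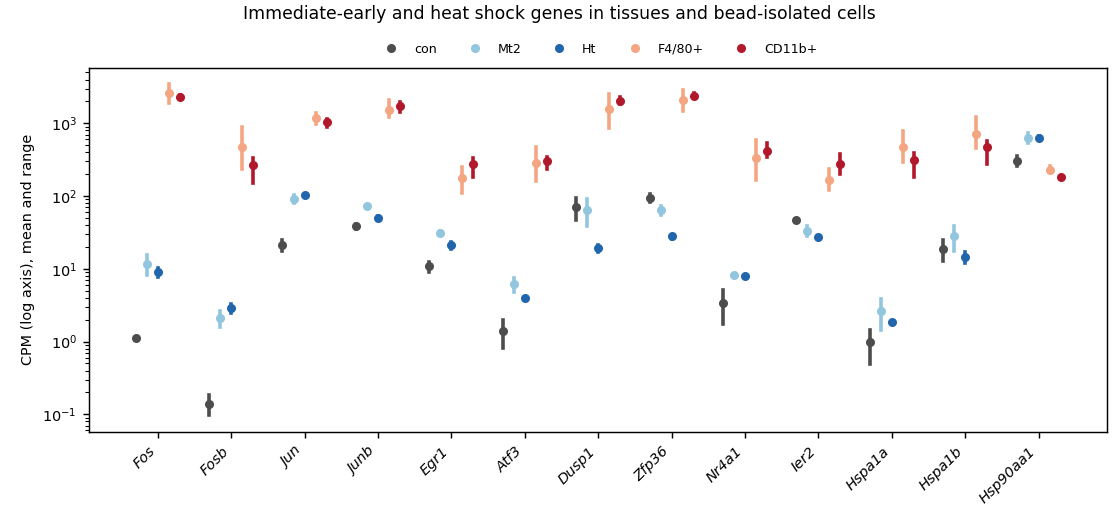
Mean (point) and range (bar) of CPM on a log axis for 13 immediate-early and heat shock genes in normal liver (con), Mt2 tissue, Ht tissue and the bead-isolated F4/80+ and CD11b+ cells. Fos lies at 2149 to 2482 CPM in CD11b+ cells and at 7.72 and 10.1 in Ht, and Hsp90aa1 is lower in the cells.

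On the tissue side, fibroblast and pericyte genes were lower in CD11b+ cells in 13 of 15 cases, with a median of -4.62. Pdgfra, the platelet-derived growth factor receptor of fibroblasts, had 211 and 210 CPM in Ht against 8.67, 6.88 and 4.82 (-4.95, SE 0.34, edgeR adjusted p = 1.32e-07), and Dcn, the proteoglycan decorin, had 373 and 350 against 12.2, 8.86 and 8.41. Rgs5, a pericyte gene, was at -5.44. Of 33 collagen and matrix genes, 31 were lower and none higher, with a median of -4.62. The lists share Col1a1, Col1a2, Col3a1 and Postn, and both medians are the value of Col1a1. Col3a1 had 5168 and 4537 CPM in Ht, Col1a1 had 970 and 894, and Col6a1 2016 and 1820. The exceptions were Fn1 (1345, 2953 and 226 CPM in CD11b+ against 1290 and 1305) and Thbs1 (1036, 1442 and 315 against 488 and 504), where CD11b+ replicates lay on both sides of the Ht samples and replicate 3 was the lowest. Without replicate 3 they were at 0.73 and 1.32.

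The integrins of the matrix-binding group were lower in 12 of 17 genes, 9 of 17 without replicate 3. Itga3, a laminin receptor, had 51.8 and 59.7 CPM in Ht against 4.63, 2.54 and 1.65, and Itga11, a collagen receptor of fibroblasts, had 0 counts in all CD11b+ samples and was at least 5.20-fold lower by a limit of 3 counts in each library. Itgb1, the most widely paired beta chain, was high on both sides, with 667 and 715 CPM in Ht against 318, 378 and 318 (-1.03, lost without CD11b+ replicate 1 or 3, at -0.99 each, and without Ht sample 2, at -0.98). Itgb5 (654, 688 and 647 CPM against 227 and 254; 1.46, and 0.97 with no call under total-count scaling) and Itga9 (1.58) were higher in the cells. Matrix proteases and their inhibitors split, with 8 of 25 higher (among them Mmp8, Adam8, Mmp25 and Mmp12, proteases of neutrophils and macrophages) and 14 lower (among them Mmp3, Mmp11, Adamts2, Timp3 and Plat). The number higher was 5 with total-count scaling, without CD11b+ replicate 2 and without Ht sample 1. Mmp12 (2.25) lost its call under these and without Ht sample 2, with values from 1.77 to 2.71. Mmp14, a membrane-bound collagenase, stood at 256, 265 and 421 CPM against 336 and 311 and did not pass.

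Epithelial genes were lower in 9 of 13 cases. Their summed level was 16.8 to 21.7 CPM in the CD11b+ samples and 214 to 331 in Ht, but 531 to 651 in Mt2 tissue and 688 to 745 in normal liver (con), higher in both than in Ht. Krt8 and Krt18, the keratins of simple epithelia, had 67.9 and 140 CPM and 38.3 and 71.8 CPM in Ht and were at most 0.559 CPM in the CD11b+ samples. Krt8 was at -9.40 (SE 0.49, edgeR adjusted p = 2.27e-08). Hepatocytes carry both keratins too. Ht sample 2 was the higher one for them as it was for the hepatocyte genes Apob (196 and 347 CPM) and Hnf4a (22.7 and 45.3), and the part of liver cells in these levels was not tested. Epcam and Cdh1, the usual epithelial surface markers, were low on both sides: Epcam had 1.69, 1.33 and 3.82 CPM against 1.28 and 1.93, and Cdh1 had 9.73, 12.5 and 7.35 against 6.44 and 8.14. These defining markers thus did not mark the Ht tissue as epithelial. Junction genes gave 19 of 25 lower with a median of -3.30, including Cdh2 and Gja1 (connexin 43, 124 and 130 CPM in Ht against 10.1, 7.87 and 4.47). Cdh3, P-cadherin, had no count in the CD11b+ samples and was at least 33.1-fold lower. F11r was the only junction gene higher in the cells, at 2.06.

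Hepatocyte genes were lower in 12 of 13 cases with a median of -5.50, and in 13 of 13 with a median of -6.48 without replicate 3. Alb had 1693 and 2618 CPM in Ht, so liver RNA was still measurable in the tissue with the most tumor. Endothelial genes were lower in 11 of 15 with a median of -2.85, and those of the vessel wall differed among themselves. Plvap (35.7 and 42.0 CPM in Ht against 1.35, 1.42 and 1.65), Cdh5 and Emcn were lower. Pecam1 (CD31) was at 26.5, 22.9 and 28.3 CPM against 34.2 and 36.8, Eng at 83.9, 73.1 and 77.7 against 59.0 and 70.3, and Flt1 at -0.62, and none of these passed. Both Pecam1 and Eng are carried by monocytes and macrophages as well. Cd34, a marker of sprouting vessels and progenitors, was lower with 17.01, 15.9 and 8.82 CPM against 223 and 201 (-3.92, SE 0.42), and Tek, the TIE2 receptor, had 0.434, 1.76 and 1.23 against 5.70 and 5.33 (-2.26).

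The growth factor list was largely on the tissue side, with 22 of 32 genes lower and 1 higher. Angpt1, the ligand that steadies vessels through Tek, had 25.4 and 26.1 CPM in Ht against 0.434, 0.301 and 0.647 (-5.82, SE 0.45), and Vegfc, the lymphatic growth factor, had 24.9 and 24.0 against 1.06, 1.03 and 1.18. Wnt5a (-4.75), Inhba (-4.29) and Igf1 (-2.11) were lower too. Pdgfb, which recruits pericytes, was the only gene of this list higher in CD11b+ cells, with 51.9, 41.0 and 72.1 CPM against 11.5 and 12.6 (2.19, SE 0.36, edgeR adjusted p = 0.000142). The list does not hold every growth factor: Tgfb1, counted with the cytokines, was higher too (2.38). Vegfa had 52.7, 64.4 and 44.6 CPM against 37.2 and 30.9, with every CD11b+ sample above both Ht samples, and did not pass (0.66, SE 0.28, edgeR adjusted p = 0.0586).

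Ligands and their receptors were set side by side in 63 pairs from a list written by hand. In 7 pairs the ligand was lower and the receptor higher in CD11b+ cells, and in 5 pairs the reverse held. The first group held Csf1 (-1.96) and Il34 (-3.71) with their shared receptor Csf1r (2.81), Cxcl12 (-5.50) with Cxcr4 (4.24), Cx3cl1 (-3.49) with Cx3cr1 (2.32), Anxa1 with the formyl peptide receptor Fpr2, and Jag1 with Notch1 and Notch2. Without replicate 3, Jag1 was at -0.86 and did not pass, so its pairs rest on that replicate, and the Notch1 levels of the groups overlapped. Notch2 (1.16) did not pass without replicate 2 (0.93), and Notch1 (1.38) did not without replicate 1 (1.14) or 2 (1.04) or either Ht sample (1.38 each). Anxa1 (-1.05) did not pass without CD11b+ replicate 1 (-0.92) or 2 (-0.96) or either Ht sample (-1.05 and -1.06). The second group held Il1b (9.19) and Il1a (3.68) with the interleukin 1 receptor Il1r1, which had 54.7 and 53.6 CPM in Ht against 3.28, 3.57 and 2.76 (-4.07), Osm (7.17) with Osmr (-4.59), Pdgfb with Pdgfrb (-4.54), and Sema4d (2.56) with Plxnb1 (-4.74). In 11 pairs both were higher and in 11 both were lower, the latter including Tgfa, Ereg and Hbegf with Egfr (42.2 and 40.2 CPM in Ht against 0.289, 0.473 and 0.647) and Efnb2 with Ephb4. Of 58 ligands 20 were higher and 23 lower, and of 51 receptors 22 were higher and 15 lower. These are levels of transcripts in separate samples and do not show contact or signalling.

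**Figure D5:**
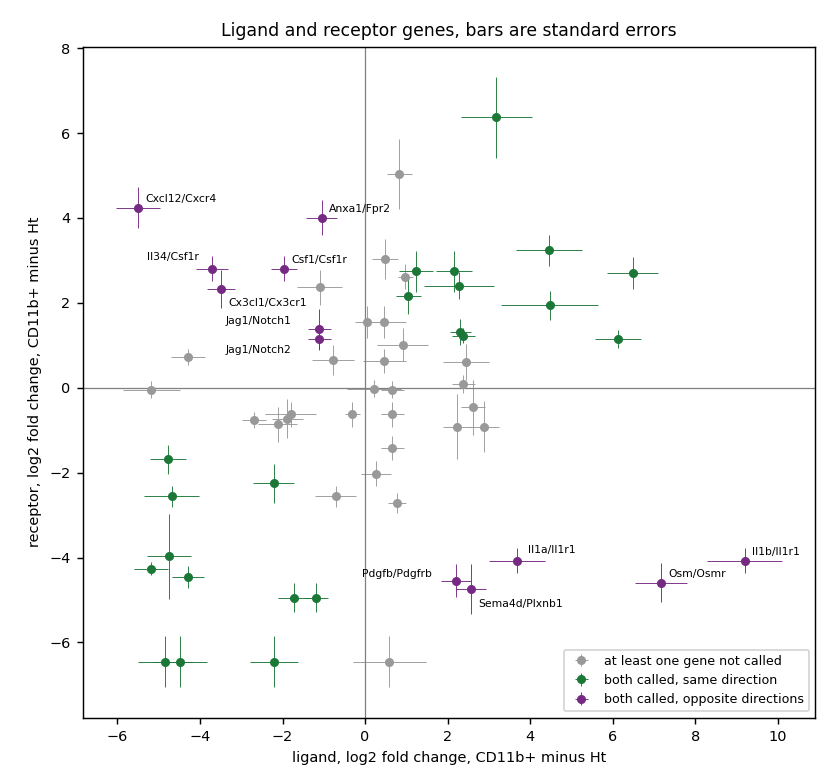
Log2 fold change (CD11b+ minus Ht) of the ligand on the horizontal axis and of its receptor on the vertical axis, with standard errors as bars, for pairs with both genes tested; labels mark pairs called in opposite directions. Il1b with Il1r1 (9.19 and -4.07) lies at the lower right and Cxcl12 with Cxcr4 (-5.50 and 4.24) at the upper left.

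Metabolic lists differed by pathway. Glycolysis and hypoxia genes gave 15 of 26 higher and 4 lower with a median of 1.35 (14 higher with a median of 1.11 without replicate 3). The glucose transporter Slc2a3 (3.81), Hk3 (3.24), the hexokinase of leukocytes, and Aldoa (764, 876 and 1322 CPM against 261 and 236; 1.99) were higher. Gapdh passed at 3.09 with 14.2 to 87.8 CPM against 3.50 and 5.80, and it is uncertain because the gene has many near-identical processed copies. Its call was lost without CD11b+ replicate 1 (1.76) and without either Ht sample (3.51 and 2.78). Hif1a did not pass (0.30) and its relative Epas1 was lower at -3.41. Arg1 (arginase) had 248, 436 and 69.2 CPM against 42.2 and 51.1 (2.43, SE 0.82), a call lost without CD11b+ replicate 2 (1.76) and without either Ht sample (2.29 and 2.57), while Nos2, which encodes iNOS, was at most 2.53 CPM on both sides and did not pass. Oxidative phosphorylation genes gave 4 of 26 higher, with a median of 0.38, and none higher and 2 lower without replicate 3, and under total-count scaling likewise none was higher and 2 were lower, with a median of -0.16. The number higher was 1 or 2 with DESeq2, with no filter, in a fit of the 5 samples alone and without either Ht sample. In lipid handling, 9 of 21 were higher and 5 lower with a median of 0.52. With total-count scaling 6 were higher and 7 lower (median 0.021), 6 were higher without Ht sample 1, and 3 were lower without Ht sample 2. Apoe, an abundant transcript of the cells, had 11857, 10885 and 19261 CPM against 2587 and 2581 (2.44), and Abcg1 (2.36) and Pparg (2.40) were higher, whereas the desaturases Scd1 (-5.08) and Scd2 (-2.51) were lower.

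Cell cycle genes differed little. Of 40 tested, 1 was higher and 7 lower with a median of -0.15, and 5 were lower without replicate 3, 4 without Ht sample 2 and 11 with total-count scaling, which gave a median of -0.65. Mki67, which encodes Ki67, had 194, 156 and 73.2 CPM against 293 and 275, and its call at -1.01 was lost without replicate 3 (-0.70) and without either Ht sample (-0.96 and -1.05). The higher gene was Cdkn1a, the inhibitor p21, with 115, 162 and 123 CPM against 33.2 and 37.5 (1.92, SE 0.52). Checkpoint genes gave 10 of 18 higher and 1 lower. Vsir (VISTA) had 726, 710 and 923 CPM against 90.7 and 100 (3.04, SE 0.29), Cd274 (PD-L1) had 46.6, 39.5 and 54.9 against 9.25 and 10.7 (2.24), and Sirpa, the receptor for Cd47, was at 2.62. Cd276 was the lower one. Of the actin and contractile genes, 7 of 24 were higher and 12 lower: leukocyte regulators such as Coro1a (3.41) and Fermt3 (3.15), which activates integrins, were higher, whereas the smooth muscle genes Cald1, Myl9 and Acta2 (58.6 and 61.6 CPM in Ht against 2.55, 3.35 and 3.76) were lower. Vim, vimentin, was abundant on both sides and did not pass (-0.49).

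By size of change among genes with groups that did not overlap, the 10 most increased were Cxcl2, Chil1, Ltf, Camp, Il1b, Ngp, S100a9, Cxcl3, Retnlg and S100a8, with log2 fold changes from 8.05 to 11.47. Without CD11b+ replicate 3 all 10 were still called, at 6.56 to 11.54, and several neutrophil genes were smaller, with Camp at 7.66, Ngp at 7.84, S100a9 at 7.60, Retnlg at 7.38 and S100a8 at 6.56. Of these 10, 8 stayed among the 10 most increased, and Retnlg and S100a8 did not. Chil1 rested on 1 count in Ht, and its ratio of 1514 had a counting interval from 271 to 59846. Cxcl3 rested on 2 counts in Ht, with a ratio of 515 and an interval from 142 to 4260. By fitted value the 10 most decreased were Gstm3, Mup7, Slc4a4, Slco1a1, Cps1, Fbn2, Cyp2d9, Pcsk6, Bche and Tnfrsf11b, of which 6 stayed among the 10 most decreased without replicate 3. The order rests on counts at or near 0: 8 of the 10 had no count in any CD11b+ sample, Cps1 had 2 counts and Cyp2d9 had 1. The limits of the 8 genes ran only from 44.8-fold to 202-fold, and whether they fell by more than genes with counts in the cells, such as Krt8 (-9.40), is not known. Of the 10, 8 were higher in every normal liver (con) library than in either Ht sample, and Fbn2 and Tnfrsf11b were not. Gstm3 had no count in the cells against 8.96 and 51.8 CPM in Ht, and was at least 202-fold lower by the Ht mean and at least 59.8-fold by Ht sample 1 alone. Tnfrsf11b, the decoy receptor osteoprotegerin, was at least 44.8-fold lower. Mup7 belongs to a family of near-identical genes, so its value of at least 118-fold is uncertain. By mean CPM the most abundant transcripts of the cells were Apoe, Cd74 and Lyz2, and those of Ht were Eef1a1, Col3a1 and Apoe. Over CD11b+ replicates 1 and 2 the order was Apoe (11371 CPM), Eef1a1 (6272), Psap (6069), Cd74 (5980) and Lyz2 (5885).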

How the data were processed

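RNA was measured by bulk RNA sequencing in tissue and in bead-isolated cells. The deposited values are raw counts of reads per gene (54532 genes), made by the authors with HISAT2 2.0.5 and featureCounts 1.5.0-p3 on GRCm38 (mm10) per the submitters' processing notes, in separate tables for tissue and for cells that were joined by gene ID. The library kit does not mark strand and the counting mode is not given in the sources used here, so overlapping and antisense genes and near-identical copies are uncertain. Genes of chromosomes X and Y (4184) were left out. The edgeR 4.0.16 quasi-likelihood F test (R 4.3.3, limma 3.58.1) was fitted to 19 samples in 9 groups with trimmed-mean scaling, and filterByExpr on the 5 samples compared left 15509 genes, with Benjamini-Hochberg adjustment over all of them. The limits for a call, 0.05 for the adjusted p and 1 for the size of the log2 fold change, were those of the study's methods. The standard error is the log2 fold change divided by the root of F. Library depth was 16603151 to 20548370 counts, and 3 counts, the floor used for fold limits, correspond to 0.146 to 0.181 CPM before trimmed-mean scaling. Intervals and floors cover counting error only. On simulated data with 200 changed genes 86% of genes set to a log2 change of 2 and 57% of those set to 1.5 were called, with 7 of 15509 genes called wrongly. The changed genes were balanced in direction and were not drawn from those with low expected counts. The real data had 6894 genes called and a replicate that deviated by gene length, which the simulation did not hold. These rates therefore do not carry over to the comparison made here. Alternatives used DESeq2 1.42.0, other scaling, filters, sample choices and left-out libraries. Genes named were members of 38 lists (702 genes) and 63 ligand and receptor pairs, the 10 largest changes in each direction among protein-coding genes with a mean log2 CPM of at least 1 and groups that did not overlap, the 15 most counted genes of each group and genes in the text of the study. Some list members are counted but not reported by name here. The members and lists were chosen with earlier results of these data known. Summaries used Python 3.11.15 with pandas 2.3.3 and scipy 1.17.1, and figures matplotlib 3.10.9.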

Additional observations from a re-analysis of the deposited data

How the results depend on the processing

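The number of genes called was 6878 with DESeq2, 6814 with total-count scaling, 7307 with no filter, 7327 with the filter over all 9 groups, 6586 with the 5 samples alone, 7054 with Ht as 3 libraries, 7148 with chromosomes X and Y kept and 9123 with no limit on the fold change, against 6894. Every gene called both ways kept its direction (6609 with DESeq2, 5593 with total-count scaling). Among the named genes, 5 lost their call in the fit of the 5 samples alone (B2m, Hbb-bs, Notch1, Tgfb3 and Xcr1), and 2 gained one (Ifit1 and Nos2). Genes higher in CD11b+ numbered 2009 with total-count scaling, and requiring at least 10 counts in every sample compared gave 4443 genes (1961 lower) of the 12132 that could then be tested. Leaving out 1 sample in turn gave 6061 to 6843 genes, 2767 to 3286 of them higher and 3294 to 3584 lower, with the lone Ht sample assumed to vary like the other groups. A replicate block gave 6686 genes (3150 higher and 3536 lower). The numbers do not pair the samples by any label. Deviations of same-numbered samples from their group means had r = 0.010, taken over CD11b+ replicates 1 and 2 and the 2 Ht samples. With 2 samples per group, 1 of them a sum of libraries, this value cannot decide whether the numbers pair samples. Of 239 genes named, 196 kept direction and call in all of the 16 alternatives that gave them a value. Those that changed sign had not passed before: with total-count scaling Cdh1 (-0.036), Ctsk (-0.26), Ddx58 (-0.11), Eng (-0.22), Epcam (-0.046), Fn1 (-0.21), Hif1a (-0.20), Ifih1 (-0.32) and Mmp9 (-0.32), Epcam with the replicate block (-0.19), and Mmp14 with Ht library 3 left out (0.0065). Leaving out a sample also did so, with ranges of -0.31 to 0.087 for Mmp14, -0.37 to 0.66 for Ctsk, -0.72 to 0.73 for Fn1, -0.12 to 0.32 for Mmp9, -0.056 to 1.07 for Clec9a and -0.078 to 0.82 for Epcam. The causes were not tested. Depth limits genes near the floor of 3 counts, and n = 2 for Ht limits every spread.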

Other observations

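Transcripts of other blood cells were also measured. Of 8 mast cell and basophil genes, 6 were below the count filter (Cpa3, Mcpt8, Fcer1a, Ms4a2, Prss34 and Cma1, at most 17 counts in any sample) and 2 were tested. Kit, the stem cell factor receptor, was higher in CD11b+ cells with 14.1, 10.9 and 15.6 CPM against 5.10 and 6.90 (1.18, SE 0.42) and did not pass without CD11b+ replicate 1 (1.14) or 3 (1.06) or without either Ht sample (0.97 and 1.40), and Gata2 was lower with 3.32, 1.89 and 0.764 CPM against 34.7 and 33.1. Of 8 erythroid and platelet genes tested, Ppbp, a platelet chemokine, was higher (2.17, 5.89 and 0.647 CPM against 0.155 and 0.365), and Hbb-bs, an adult beta globin, and Itga2b, the platelet integrin chain, were lower. Hbb-bs had 3.90, 4.69 and 11.9 CPM in the cells against 20.8 and 12.8 in Ht (-1.31), and did not pass without CD11b+ replicate 1 (-1.03) or 2 (-1.10) or Ht sample 1 (-0.92).

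Among the 15 most counted genes of each group by mean CPM, the CD11b+ list held the antigen presentation genes Cd74, H2-Eb1, H2-Ab1, H2-K1 and H2-D1, the C1q chains C1qa and C1qb and the lysosomal genes Lyz2, Psap, Ctss and Ctsb. The Ht list held the collagen genes Col3a1, Col6a1 and Col6a2 and the liver gene Alb. Apoe, Eef1a1, Actb and H2-D1 stood in both. H2-Eb1 and H2-Ab1 were not among the 15 over CD11b+ replicates 1 and 2 alone. Lgals1, galectin 1, was lower in CD11b+ cells with 482, 585 and 707 CPM against 2589 and 2170 (-2.01, SE 0.42), and Actb, often used as a constant gene, was higher with 5318, 6106 and 7214 against 1685 and 1856 (1.81, SE 0.29).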
